A study of Rattus norvegicus with 9 samples.

Results

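Salidroside, a phenolic glycoside of Rhodiola roots, was compared with its saline vehicle in rat brain after a stroke. The comparison uses 6 of the 9 arrays of the study, taken from the labels: 3 from rats given salidroside after middle cerebral artery occlusion (MCAO) and 3 from rats given vehicle after MCAO. Occlusion of this artery starves a large territory of cortex and striatum on one side of the brain, and reperfusion restores its flow. All animals were male Sprague Dawley rats, with 3 animals and 3 arrays per group. Treated rats received 50 mg/kg salidroside intraperitoneally once a day for 6 days, and vehicle rats received saline on the same schedule. The first dose was given 1 h after reperfusion. The 3 arrays of sham rats, for which the labels name no treatment, were on other slides and are printed beside the comparison as a reference level. RNA came from the dissected ischemic tissue, and the labels give neither an age nor a finer brain region. Each MCAO sample title begins with a number, and 1 salidroside and 1 vehicle array share each of the numbers 1, 17 and 5. What the number stands for is not stated. The arrays are set out both as 2 groups and as the 3 pairs with a shared number, called pairs 1, 17 and 5. Pair 1 is salidroside array 3 with vehicle array 1, pair 17 is salidroside 1 with vehicle 2, and pair 5 is salidroside 2 with vehicle 3.

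Immediate early genes are transcribed within minutes of synaptic activity or growth factor signalling and need no new protein. They include the zinc finger factors of the early growth response (Egr) family, the Fos and Jun factors and the synaptic gene Arc, and their basal level in forebrain follows the ongoing activity of neurons. Cholesterol in the brain is made locally, under the sterol-sensing transcription factor SREBP2, because plasma lipoproteins do not pass the blood-brain barrier. Around an infarct, astrocytes become reactive, microglia and infiltrating macrophages clear debris, and metallothioneins and acute-phase proteins are induced.

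A level is given as the log2 of the background-corrected signal divided by the 75th percentile signal of its array, so that 0 is that percentile and 1 unit is a doubling; levels of different probes are not compared. The 6 MCAO arrays had 75th percentile signals of 1029 to 1966 intensity units, and 82.0% to 88.5% of probes lay well above background. Sham arrays 1, 2 and 3 had 2340, 950 and 496 units, with 85.5%, 84.7% and 65.6% of probes well above background. Sham 3 was the dimmest array, which limits the sham levels of dim genes. Pairs 1 and 5 were hybridised on 1 slide and pair 17 on another, so no pair crosses slides. Of 26913 features on the array, 22783 passed the filter on dim probes (13276 with a gene symbol), and 22732 of these had a value on all 6 MCAO arrays. The median difference over all features was 0.06 on the log2 scale, and 0.09, -0.03 and 0.11 within pairs 1, 17 and 5. With normexp background correction, an alternative to the scanner software's background subtraction, the median of all features moved to 0.55. Each difference under that setting is therefore to be read relative to a shifted centre, and several dim genes that were lower with salidroside had the opposite sign there. With 3 arrays a group, the number of arrays limits the precision of every value.

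Several arrays stood apart in genes of neighbouring structures. The summed level of 10 measured choroid plexus markers was 88.7 times the array's 75th percentile on salidroside array 3, 21.3 on vehicle 1 and 96.1 on vehicle 3. It was 1.53 to 2.69 on the other 3 MCAO arrays and 1.95 to 2.05 on the sham arrays. Ttr, the transthyretin gene of the choroid plexus, was at 6.42, 4.28 and 6.43 on those 3 arrays and at -3.46 to -2.70 on the others. It is 1 of the 10 markers and makes up most of the sum on those 3 arrays, so the sum and Ttr are not independent. The 7 measured cerebellar granule cell markers summed to 24.1 on vehicle 2 against 1.55 to 3.39 on the other 5 arrays. There the cerebellar genes Cbln1 and Pcp2 were at 2.84 and 2.97. Markers of other regions also differed between arrays. The 8 measured thalamic and diencephalic markers summed to 1.75, 7.16 and 1.80 on salidroside arrays 1, 2 and 3 and to 2.6, 13.2 and 8.43 on vehicle arrays 1, 2 and 3, with sham at 2.08 to 2.87. The MCAO groups thus overlapped, with salidroside 2 above vehicle 1. All 8 had a lower mean with salidroside and 2 (25.0%) were lower in all pairs, beside 13.9% of all features. Their median difference of -0.76 was -0.25, -1.30 and -0.08 in pairs 1, 17 and 5. It became 0.16 under normexp correction, -0.35 without salidroside 1 and -0.46 without vehicle 2. The 5 measured hindbrain and spinal cord markers summed to 0.52 to 0.84 with salidroside, 1.04 to 2.27 with vehicle and 0.59 to 0.74 in sham, with no overlap between the MCAO groups. Of these 5, 1 (20.0%) was lower and 0 were higher in all pairs, and 2 had a higher mean with salidroside. Their median of -0.76 was 0.11, -0.41 and -1.68 in pairs 1, 17 and 5. It had the opposite sign under 2 alternatives (0.42 under normexp correction). The high choroid plexus arrays fall on both sides of pair 1, so that pair differed by the opposite sign from pair 5. The part of these structures in the differences was not tested beyond the pair values.

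**Figure D1:**
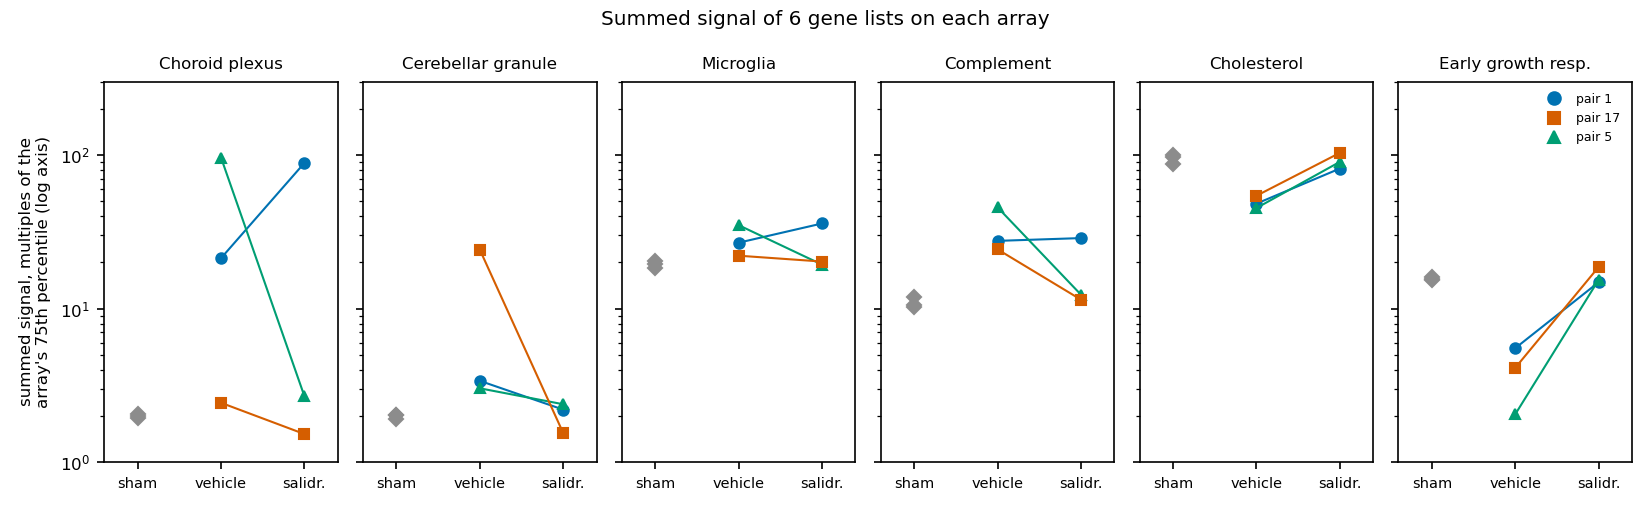
Summed signal of the measured members of 6 gene lists (vertical log axis, multiples of each array's 75th percentile) on the sham, vehicle and salidroside arrays. Each point is 1 array, lines join the arrays of a pair and grey diamonds are sham arrays. Choroid plexus signal is high on 3 of the 6 MCAO arrays, where most of it is from Ttr. Cerebellar granule cell signal is high on vehicle 2. Every salidroside array lies above every vehicle array in the early growth response and cholesterol panels.

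Over all features, 3 of 22783 (0.0132%) differed at an adjusted p under 0.05 in a limma model with Benjamini-Hochberg adjustment, 2 lower and 1 higher with salidroside. Slc6a5, the neuronal glycine transporter GlyT2 of brainstem and spinal inhibitory neurons, was at -3.31, -2.82 and -2.95 on the salidroside arrays and at -1.24, -0.95 and -1.14 on the vehicle arrays. It fell by 1.91 (SE 0.17, adjusted p = 0.0254), with no overlap, and lay at -2.49 to -2.36 on the sham arrays. A second Slc6a5 probe differed by 0.04, and the mean of the probes by -0.94. Slc6a5 is itself one of the 5 hindbrain and spinal cord markers. Their summed level, lower on every salidroside array than on any vehicle array, includes Slc6a5 and so is not independent of it. Of the 5 markers, 2 had a higher mean with salidroside. The part of that tissue in the difference was not tested. Crisp3, a secreted cysteine-rich protein, was at -5.11, -5.30 and -5.24 with salidroside and at -3.18, -3.69 and -3.32 with vehicle. It fell by 1.82 (SE 0.18, adjusted p = 0.0345) and lay at -5.40 to -5.01 in sham, but the difference was -0.025 under normexp correction. The transcript ENSRNOT00000026303, for which the files give no symbol, was at 2.73, 2.55 and 2.49 with salidroside and at 0.61, 0.41 and -0.12 with vehicle. It rose by 2.29 (SE 0.21, adjusted p = 0.0254), with sham arrays at 2.37 to 2.67. The pair differences had one sign for all 3 features, and each salidroside level lay closer to the sham levels than to the vehicle levels. With the title number as a block in the 6 arrays no feature was called, the adjusted p of each of the 3 was 0.31, and 2210 features had an unadjusted p under 0.05. Leaving out vehicle 1 gave 8 calls, and leaving out any other array, a sham array included, gave 0, with 1018 to 1685 features at an unadjusted p under 0.05 against 1353 with all arrays.

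A wider view counts the genes that moved together in every pair. At least 1 log2 unit higher with salidroside in all 3 pairs were 39 of 22732 features (0.172%), of which 29 have a symbol, and at least 1 lower were 37 (0.163%), of which 25 have a symbol. A difference of any size in one direction in all pairs was common: 22.7% of features were higher and 13.9% lower. The salidroside arrays lay all above the vehicle arrays for 5.7% of features and all below for 6.22%. All 29 named genes of the higher set and 22 of the 25 of the lower set had groups that did not overlap. The threshold fell between Kcnv1 (smallest pair difference 1.00) and Dnajb5 (0.994) on the higher side, and between Pnpla2 (1.00) and Tekt4 (0.998) on the lower. These sets were chosen by the pair differences, so their size of difference is a description. Across features the pair differences correlated with each other at r = 0.140 (pairs 1 and 5), 0.153 (1 and 17) and 0.306 (5 and 17), over genes that are not independent replicates.

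**Figure D2:**
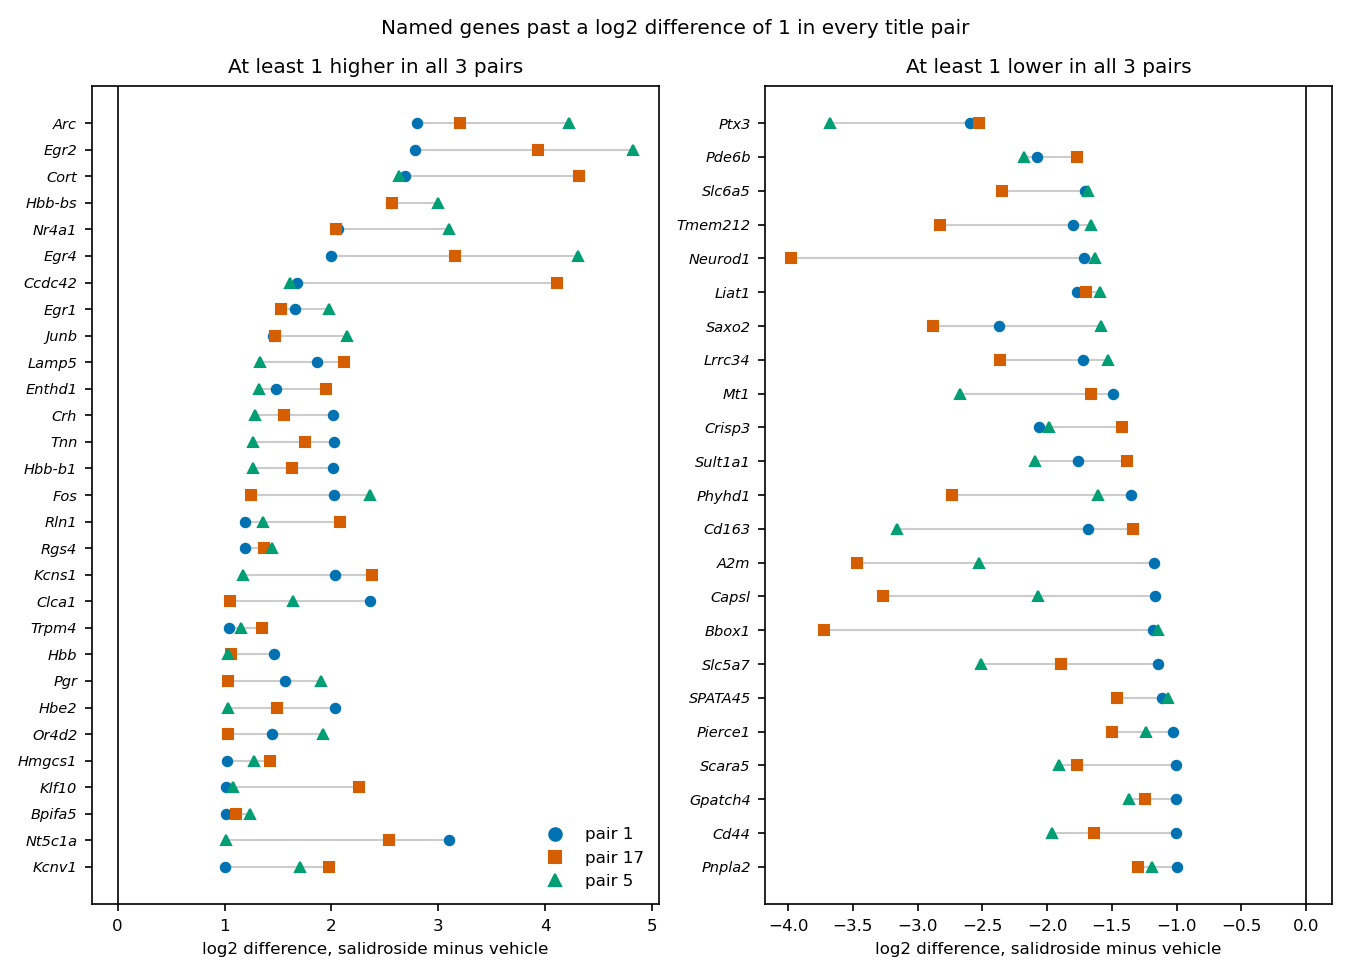
Log2 difference, salidroside minus vehicle, within pairs 1, 17 and 5 (points) for the 29 named genes at least 1 higher and 23 of the 25 at least 1 lower in all 3 pairs. Genes are ordered by their smallest pair difference; Arc, Egr2 and Cort lead the higher panel and Ptx3 the lower.

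The higher set was led by genes of the immediate early response. Egr2 was at 0.74, 0.95 and 0.81 on the salidroside arrays, at -1.97, -3.19 and -3.86 on the vehicle arrays and at -0.04 to 0.58 in sham. The vehicle arrays spread widely and all lay far below the other 6. The difference was 3.84 (SE 0.42, adjusted p = 0.0634), 14.3-fold, and 2.78, 3.93 and 4.82 in pairs 1, 17 and 5. Egr4 was at 3.52, 3.32 and 3.23 with salidroside and at 1.24, 0.36 and -0.99 with vehicle, a difference of 3.15 (SE 0.46, adjusted p = 0.145). Egr1, the most studied member, was at -1.79, -1.23 and -1.1 with salidroside and at -2.76, -3.31 and -3.21 with vehicle. Its groups did not overlap and differed by 1.72 (SE 0.25, adjusted p = 0.145). Egr3 differed by 0.53 and Nab2, a corepressor that binds Egr proteins, by 0.80, both with 3 positive pairs. All 5 measured members of this list of 6 were thus higher in every pair, with groups that did not overlap, 4 with an unadjusted p under 0.05 and a median difference of 1.72 against 0.06 over all features. No member passed the adjusted threshold. Over all features 22.7% were higher in all pairs and 5.7% had every salidroside array above every vehicle array. An unadjusted limma p under 0.05 was found for 1353 of 22783.

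The promoters of 2 Egr genes are printed with those of Nr4a1 and Mt1, described further on, because these genes lead their lists and carry elements of the pathways those lists stand for. Each is the 250 bases before the start of the gene in RefSeq, build GRCr8, 5′ to 3′ on the gene's strand. Egr2 lies at chr20:21054442-21054691 (minus strand), and the capitals mark a CArG box, the binding element of serum response factor, and a short cyclic-AMP response element (short CRE). Egr4 lies at chr4:119607818-119608067 (minus strand), with 2 short CREs in capitals. Nr4a1 lies at chr7:134259888-134260137 (plus strand), with 1 EGR site in capitals. Mt1 lies at chr19:10832976-10833225 (minus strand), with its 6 metal response elements in capitals.
Egr2: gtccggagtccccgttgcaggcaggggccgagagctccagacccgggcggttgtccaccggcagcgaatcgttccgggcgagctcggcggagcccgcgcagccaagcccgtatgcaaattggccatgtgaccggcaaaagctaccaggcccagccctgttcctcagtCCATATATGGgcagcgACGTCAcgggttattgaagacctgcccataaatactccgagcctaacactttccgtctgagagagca
Egr4: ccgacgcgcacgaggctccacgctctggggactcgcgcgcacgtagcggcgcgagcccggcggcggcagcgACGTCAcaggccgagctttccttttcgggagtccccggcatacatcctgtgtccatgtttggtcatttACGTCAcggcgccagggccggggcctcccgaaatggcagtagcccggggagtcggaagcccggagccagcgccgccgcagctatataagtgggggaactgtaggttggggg
Nr4a1: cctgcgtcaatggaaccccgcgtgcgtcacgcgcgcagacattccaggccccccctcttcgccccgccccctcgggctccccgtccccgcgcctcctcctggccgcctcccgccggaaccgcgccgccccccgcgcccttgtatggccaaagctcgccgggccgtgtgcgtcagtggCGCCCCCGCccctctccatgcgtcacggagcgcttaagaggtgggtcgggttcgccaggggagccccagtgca
Mt1: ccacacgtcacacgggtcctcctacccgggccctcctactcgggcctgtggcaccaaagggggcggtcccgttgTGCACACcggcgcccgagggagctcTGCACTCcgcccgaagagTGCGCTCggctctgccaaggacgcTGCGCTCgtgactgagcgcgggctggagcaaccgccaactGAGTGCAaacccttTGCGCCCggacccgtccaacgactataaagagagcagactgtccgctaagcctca
Searched on both strands, the short CRE (TGACGT) was in 7.25% of all 27457 promoters and in 4 of the 21 higher-set genes with a promoter (19.0%). The full CRE (TGACGTCA, which holds the short CRE) was in 1.70% of all and in 0 of the 21. A CArG box was in 1.5% of all, in 2 of the 21 (9.52%), and in 2 of the 4 Egr-family genes with a promoter. The EGR site (GCGGGGGCG or GCGTGGGCG) was in 2.94% of all promoters and 1 of the 21 (4.76%). Among other immediate early factors, 4 of 13 promoters held a full CRE (30.8%) and 5 an EGR site (38.5%). Among the activity-induced effectors, 4 of 22 held a full CRE (18.2%) and 1 an EGR site (4.55%). A match describes these letters and was not tested as a site.

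Most other immediate early transcription factors were higher with salidroside. Nr4a1, an orphan nuclear receptor, was at 2.58, 3.49 and 3.27 with salidroside and at 1.21, 0.53 and 0.38 with vehicle, with sham at 2.71 to 3.20. The groups did not overlap and differed by 2.4 (SE 0.30, adjusted p = 0.0791). Fos was at -0.19, 1.33 and 0.52 with salidroside and at -1.51, -1.44 and -1.03 with vehicle, a difference of 1.88 (SE 0.34, adjusted p = 0.25). The 3 sham Fos levels were 0.26 to 0.29, inside the salidroside range. Junb, its dimer partner, differed by 1.69, the zinc finger factor Klf10 by 1.45 and Csrnp1 by 0.76. Of 21 measured factors, 13 (61.9%) were higher and 0 lower in all 3 pairs, beside 22.7% and 13.9% of all features. Of these 21, 7 were higher with no overlap, beside 5.7% of all features. An unadjusted limma p under 0.05 was found for 9, and the median difference was 0.76. The 8 factors not higher in all pairs differed in sign between pairs.

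Genes that neuronal activity induces further downstream were also higher in most pairs. Arc, which regulates AMPA receptor traffic at synapses, was at 3.47, 4.0 and 4.09 with salidroside and at 1.29, 0.27 and -0.22 with vehicle. Every salidroside array exceeded the highest vehicle array by more than 2 units, and the sham arrays were at 2.97 to 4.08. The difference was 3.41 (SE 0.43, adjusted p = 0.0791), 10.6-fold. Rgs4, a regulator of G protein signalling, was at 3.28, 2.95 and 3.15 against 1.96, 1.92 and 1.5, a difference of 1.33. The secreted neuropeptide precursor Vgf differed by 1.20, the activin subunit Inhba by 0.62 and Bdnf, the neurotrophin of activity-dependent plasticity, by 1.05 (adjusted p = 0.655). Of 27 effectors, 20 (74.1%) were higher and 1, the matricellular gene Ccn2, lower in all pairs, beside 22.7% and 13.9% of all features. Of these 27, 11 were higher with no overlap, beside 5.7% of all features. An unadjusted limma p under 0.05 was found for 13, and the median difference was 0.62. The medians of these 3 activity lists were positive in every pair and moved by less than 1.5 times under each of the 22 alternatives tried. Under normexp correction they were 1.65, 0.92 and 0.84, where the median of all features was 0.55. Each thus lay nearer to the median of all features than in the main scaling.

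**Figure D3:**
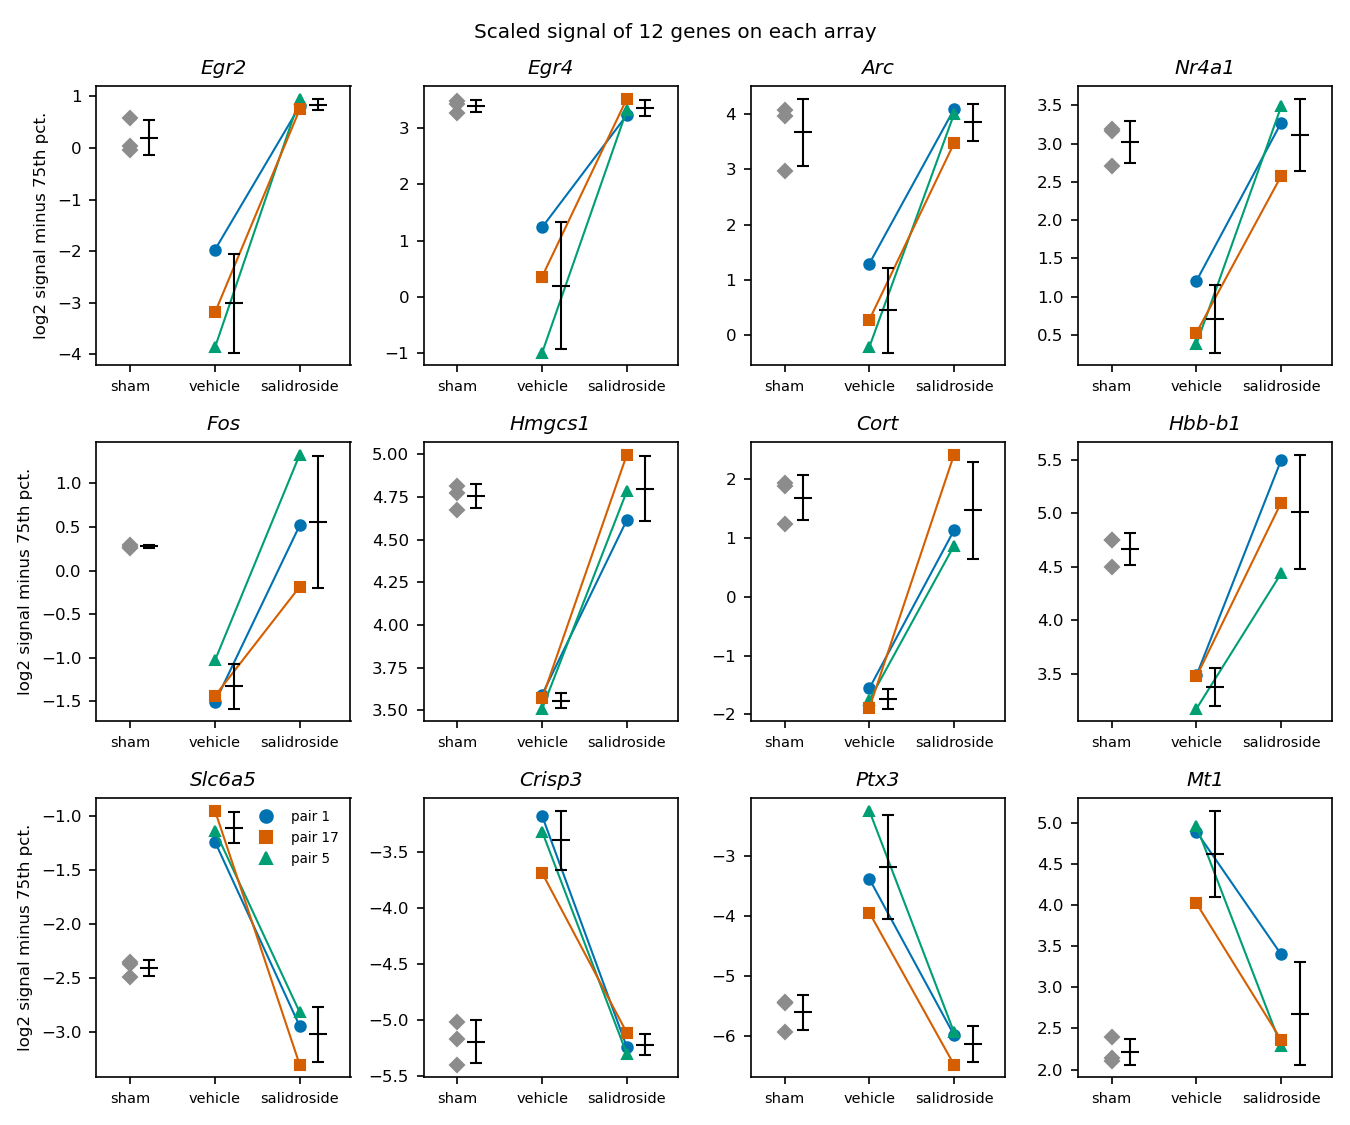
Scaled log2 signal of 12 genes on each sham (grey diamonds), vehicle and salidroside array; lines join the arrays of pairs 1, 17 and 5, and black bars give the mean and SD of each group of 3. In every panel the vehicle arrays lie to one side of the salidroside arrays, and in the Egr2 panel the vehicle arrays range from -3.86 to -1.97.

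Genes of cholesterol synthesis and uptake were higher as a list. Hmgcs1, the synthase that makes HMG-CoA for the mevalonate pathway, was at 5.00, 4.78 and 4.61 with salidroside and at 3.59, 3.57 and 3.51 with vehicle. The vehicle arrays varied little (SD 0.04), and the sham arrays, at 4.68 to 4.82, lay inside the salidroside range. The difference was 1.24 (SE 0.14, adjusted p = 0.0746), 2.37-fold. Cyp51, the lanosterol demethylase, was at 2.68, 2.34 and 2.11 against 1.13, 1.34 and 1.30, a difference of 1.12. The sterol methyl oxidase Msmo1 differed by 1.03, the sterol carrier Stard4 by 1.05 and the squalene epoxidase Sqle by 0.72. Of 24 members, 20 (83.3%) were higher in all pairs, 19 with no overlap, beside 22.7% and 5.7% of all features. An unadjusted limma p under 0.05 was found for 17 members. The median difference was 0.72, and 0.77 under normexp correction, where that of all features was 0.55. Pair medians were 0.56, 0.81 and 0.75.

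Of the other 4 members of the cholesterol list, 1 was lower in all pairs. The other 3, Idi1, Tm7sf2 and Pmvk, differed in sign between pairs; Idi1 was at 2.6 on vehicle 2 against 1.1 and 1.30 on the other vehicle arrays. The summed level of the list was 81.4 to 103 with salidroside, 45.1 to 54.2 with vehicle and 87.3 to 100.5 in sham. The sterol element TCACNCCAC was in 0 of the 16 members' promoters held and in 0.976% of all.

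**Figure D4:**
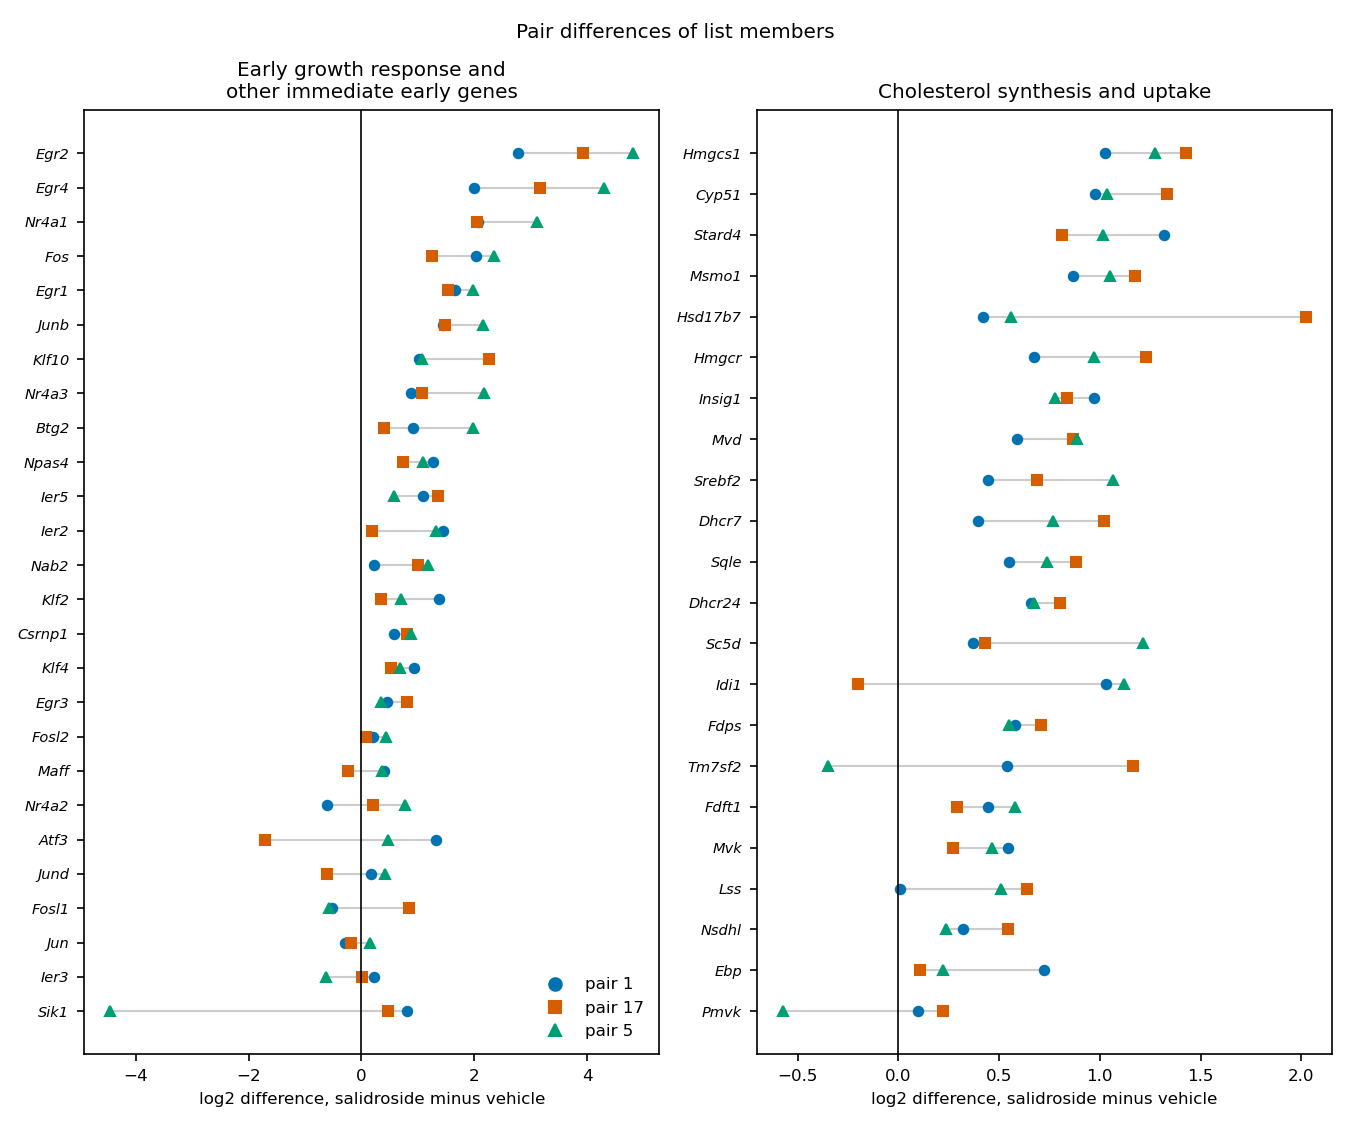
Log2 difference, salidroside minus vehicle, in pairs 1, 17 and 5 for every measured early growth response and other immediate early gene (left) and for 22 of the 24 measured cholesterol genes (right). Most rows lie wholly to the right of 0, and Sik1 spans from -4.45 to 0.81.

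Neuropeptide and cortical neuron genes were higher beside the activity genes. Cort, the cortistatin precursor of a class of cortical interneurons, was at 2.42, 0.87 and 1.13 with salidroside and at -1.56, -1.89 and -1.76 with vehicle. All 3 salidroside arrays lay over 2 units above the vehicle arrays, and sham was at 1.25 to 1.94. The difference was 3.21 (SE 0.39, adjusted p = 0.0791). Crh, corticotropin-releasing hormone, differed by 1.62, Sst, somatostatin, by 0.81 and Vip, vasoactive intestinal peptide, by 0.67. Of 14 measured interneuron markers 6 (42.9%) were higher and 1 lower in all pairs, beside 22.7% and 13.9% of all features. Their median of 0.56 became 0.36 without salidroside 1 and 0.48 under normexp correction, where that of all features was 0.55. Of 8 measured cortical projection neuron markers 7 (87.5%) were higher in all pairs, among them Lamp5 (1.77) and Tbr1 (0.79). The cortical median of 0.77 became 0.49 without vehicle 3 and 0.90 under normexp correction. Pan-neuronal markers differed less: 8 of 12 (66.7%) were higher in all pairs with a median of 0.24. Under normexp correction that median was 0.29, below the 0.55 of all features. None of the 12 markers had an unadjusted p under 0.05, and their summed level was 147 to 165 with salidroside and 116 to 147 with vehicle. In bulk tissue, fewer cells of a type and less RNA per cell cannot be told apart. The part of neuronal content in the activity lists was not tested, nor was that of the thalamic and hindbrain markers, whose summed levels were lower on the salidroside arrays of every pair. Of 25 glutamatergic synapse genes 15 (60.0%) were higher and 1 lower in all pairs, with a median of 0.39 (0.67 under normexp correction). Stx1a, a presynaptic SNARE protein, differed by 1.00 and Nrgn, the postsynaptic calmodulin binder neurogranin, by 0.80. The 25 voltage-gated channel genes had 10 (40.0%) higher and 0 lower in all pairs. Their median was 0.22 (0.42 without vehicle 2). Under normexp correction it was 0.52, below the 0.55 of all features. Among the channel genes Cacng3, an AMPA receptor auxiliary subunit, differed by 0.97.

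Red cell genes were also higher. Hbb-bs was at 3.61, 2.63 and 3.37 with salidroside and at 0.82, 1.05 and -0.36 with vehicle, and sham was at 1.64 to 2.53. The beta globin Hbb-b1 was at 5.10, 4.44 and 5.50 against 3.48, 3.47 and 3.17. The groups did not overlap for either, with differences of 2.70 and 1.64 (adjusted p = 0.174 for both). The near-identical beta globins may share probe signal, so their values are not independent. Hba-a1, an alpha globin, differed by 1.23, Hbe2 by 1.52, and Alas2, the erythroid enzyme that starts haem synthesis, by 1.52. Of 7 measured erythrocyte genes, 6 (85.7%) were higher and 0 lower in all pairs, beside 22.7% and 13.9% of all features. Their median difference was 1.23. Their summed level was 94.6 to 168 with salidroside, 46.6 to 56.4 with vehicle and 93.6 to 141 in sham. The part of blood content in other differences was not tested.

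The rest of the higher set is mixed. It holds Ccdc42 (2.47), a coiled-coil gene with a difference of 4.11 in pair 17 and 1.61 in pair 5, the channel subunits Kcns1 (1.86) and Kcnv1 (1.56), and Trpm4 (1.18). It also holds Pgr, the progesterone receptor (1.5), Rln1, a relaxin (1.54), Bpifa5 (1.12), Enthd1 (1.58) and Tnn, tenascin N (1.68). A second probe differed by 0.44 for Enthd1 and 0.22 for Tnn. Clca1, Or4d2 and Nt5c1a, at 1.68, 1.46 and 2.22, were well above background on only 1 of the 3 vehicle arrays.

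The lower set was led by Ptx3, pentraxin 3, a secreted pattern recognition protein of acute inflammation. It was at -6.47, -5.93 and -5.98 with salidroside, at -3.38, -3.95 and -2.25 with vehicle and at -5.93 to -5.43 in sham. The groups did not overlap and differed by -2.93 (SE 0.40, adjusted p = 0.0952), a value that became -0.23 under normexp correction. Other reactive astrocyte genes were lower in the same direction: Cd44, the hyaluronan receptor, by -1.54, Cp, ceruloplasmin, by -1.89 and Aspg by -1.60. For Cd44, 4 probes ranged from -1.54 to 1.31. Of 15 measured reactive astrocyte genes 9 (60.0%) were lower and 0 higher in all pairs, beside 13.9% and 22.7% of all features. Of the 15, 5 were lower with no overlap, beside 6.22% of all features, and 7 had an unadjusted limma p under 0.05. Their median of -1.1 was -0.51, -0.74 and -2.07 in pairs 1, 17 and 5. Under normexp correction it was -0.23, beside 0.55 for all features. It became -0.61 without vehicle 3 and -0.66 without salidroside 1. Gfap, the astrocyte intermediate filament, did not follow in every pair: it differed by 0.19, -1.46 and -1.09 (mean -0.78, or 0.07 under normexp correction).

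Mt1 and Mt2A, metallothioneins that bind zinc and copper, were lower with salidroside in every pair. Mt1 was at 2.36, 2.29 and 3.4 with salidroside, at 4.89, 4.02 and 4.96 with vehicle and at 2.11 to 2.39 in sham. The groups did not overlap, salidroside 3 being nearest to the vehicle arrays, and differed by -1.94 (SE 0.35, adjusted p = 0.25). Mt2A differed by -1.59, and by -0.66, -1.99 and -2.13 in pairs 1, 17 and 5. The zinc transporter of synaptic vesicles, Slc30a3, was higher by 0.69 in this list of 6. The list had 3 members lower and 1 higher in all pairs, beside 13.9% and 22.7% of all features. As a list it had no direction: 3 members had a higher and 3 a lower mean, and the median of -0.02 had the opposite sign under 5 alternatives (0.28 under normexp correction). Metal response elements (TGCGCNC or TGCACNC, a search added after the values were seen) were in 4 of 5 promoters of this list (80.0%) and in 21.2% of all promoters. They were in 7 of 21 promoters of the lower set and in 7 of 21 of the higher set (33.3% each). Among other immediate early factors they were in 7 of 13 (53.8%).

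Antioxidant genes of the Nrf2 pathway were lower in every pair in a share near that of all features. Nqo1, a quinone reductase, was at -3.77 ± 0.04 (SD, n = 3) with salidroside and at -3.12 ± 0.06 with vehicle, with no overlap and a difference of -0.65 in the main scaling but 0.26 under normexp correction. Nfe2l2, the gene of Nrf2 itself, differed by -0.57, Prdx1 by -0.43 and Prdx6 by -0.34, each lower in all pairs. Hmox1, haem oxygenase 1, differed by 0.12, -0.29 and -1.28 in pairs 1, 17 and 5. Of 20 measured members 0 were higher and 4 (20.0%) lower in all pairs, beside 22.7% and 13.9% of all features. Of these 20, 3 were lower with no overlap, beside 6.22% of all features. The median of -0.09 was -0.18 without vehicle 2, -0.16 with quantile normalization and -0.19 in the authors' deposited table.

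Complement genes and several microglial genes differed by pair. The complement C1q chains C1qa, C1qb and C1qc differed by -1.18, -1.25 and -1.27, but in pair 1 by only 0.11, -0.05 and -0.37. Complement as a list (16 measured) had 7 (43.8%) lower and 0 higher in all pairs, beside 13.9% and 22.7% of all features. Its pair medians were 0.03, -0.72 and -1.57. Its summed level was 28.8 on salidroside 3 and 11.4 and 12.3 on salidroside 1 and 2, against 24.3 to 45.6 with vehicle and 10.3 to 12 in sham. Its median of -0.74 became -1.11 without salidroside 3, -0.48 without vehicle 3 and -0.06 under normexp correction, where that of all features was 0.55. Of 9 macrophage markers 5 (55.6%) were lower and 0 higher in all pairs. Their median was -0.77 (0.15 under normexp correction and -1.17 in the authors' deposited table). The macrophage medians were -0.35, -0.45 and -1.33 in pairs 1, 17 and 5, of one sign and largest in pair 5. Cd163, the haemoglobin scavenger receptor, differed by -2.06 (0.36 under normexp correction) and was well above background on 2 of 3 salidroside arrays. Gpnmb, a glycoprotein of phagocytes, differed by -2.17, with only -0.35 in pair 1. Microglia (11 markers) had 3 (27.3%) lower and 1 (9.09%) higher in all pairs. The purinergic receptor P2ry12 differed by -0.85, while Cx3cr1, the fractalkine receptor, was at 1.42 ± 0.31 (SD, n = 3) with salidroside and 0.34 ± 0.37 with vehicle and higher in every pair (0.77, 1.34 and 1.15). Its neuronal ligand Cx3cl1 differed by 0.86.

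Several genes of motile cilia and ependyma lay in the lower set. Lrrc34 and Tmem212 differed by -1.87 and -2.10, Liat1, Saxo2, Capsl and Pierce1 by -1.69, -2.28, -2.17 and -1.25. Under normexp correction Lrrc34, Liat1, Saxo2 and Capsl had the opposite sign (0.070, 0.69, 0.76 and 0.77), and Tmem212 and Pierce1 were at -0.23 and -0.37. The median of all features was 0.55 under that setting. Liat1 was well above background on 2 and Saxo2 and Capsl on 1 of 3 salidroside arrays. These 3 genes thus passed the filter on dim probes only through groups other than salidroside, and their differences are a description. Of 10 measured ependymal and cilia markers 6 (60.0%) were lower and 0 higher in all pairs, beside 13.9% and 22.7% of all features. Their median of -0.97 was 0.12 under normexp correction, -0.59 in the authors' deposited table, -0.62 with array weights and -0.38 without salidroside 1. The summed level was 1.23 to 2.28 with salidroside and 2.02 to 3.43 with vehicle, so these ranges overlapped, and 1.15 to 1.54 in sham. Pair medians were -0.56, -1.83 and -0.96. Their choroid plexus neighbours did not follow, with pair medians of 0.67, -0.45 and -1.94.

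The remaining lower genes have varied roles. Sult1a1, a phenol sulfotransferase, was at 0.54, -0.19 and 0.23 with salidroside and at 1.99, 1.92 and 1.90 with vehicle, a difference of -1.75. Neurod1, a neuronal differentiation factor also expressed by cerebellar granule cells, was at -1.0, -1.23 and -1.24 against 0.47, 2.98 and 0.40. Its highest level lay on vehicle 2, the array with high cerebellar markers, and pairs 1 and 5 alone differed by -1.72 and -1.63. The proteinase inhibitor A2m differed by -2.39 and the lipase Pnpla2 by -1.16 (adjusted p = 0.0952). Phyhd1 (-1.90), Scara5 (-1.56), Slc5a7 (-1.85), Gpatch4 (-1.20), SPATA45 (-1.21), Pde6b (-2.01) and Bbox1 (-2.02) were also in the set. Pde6b and Bbox1 were well above background on 1 of 3 salidroside arrays, and differed by 0.77 and 0.71 under normexp correction.

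**Figure D5:**
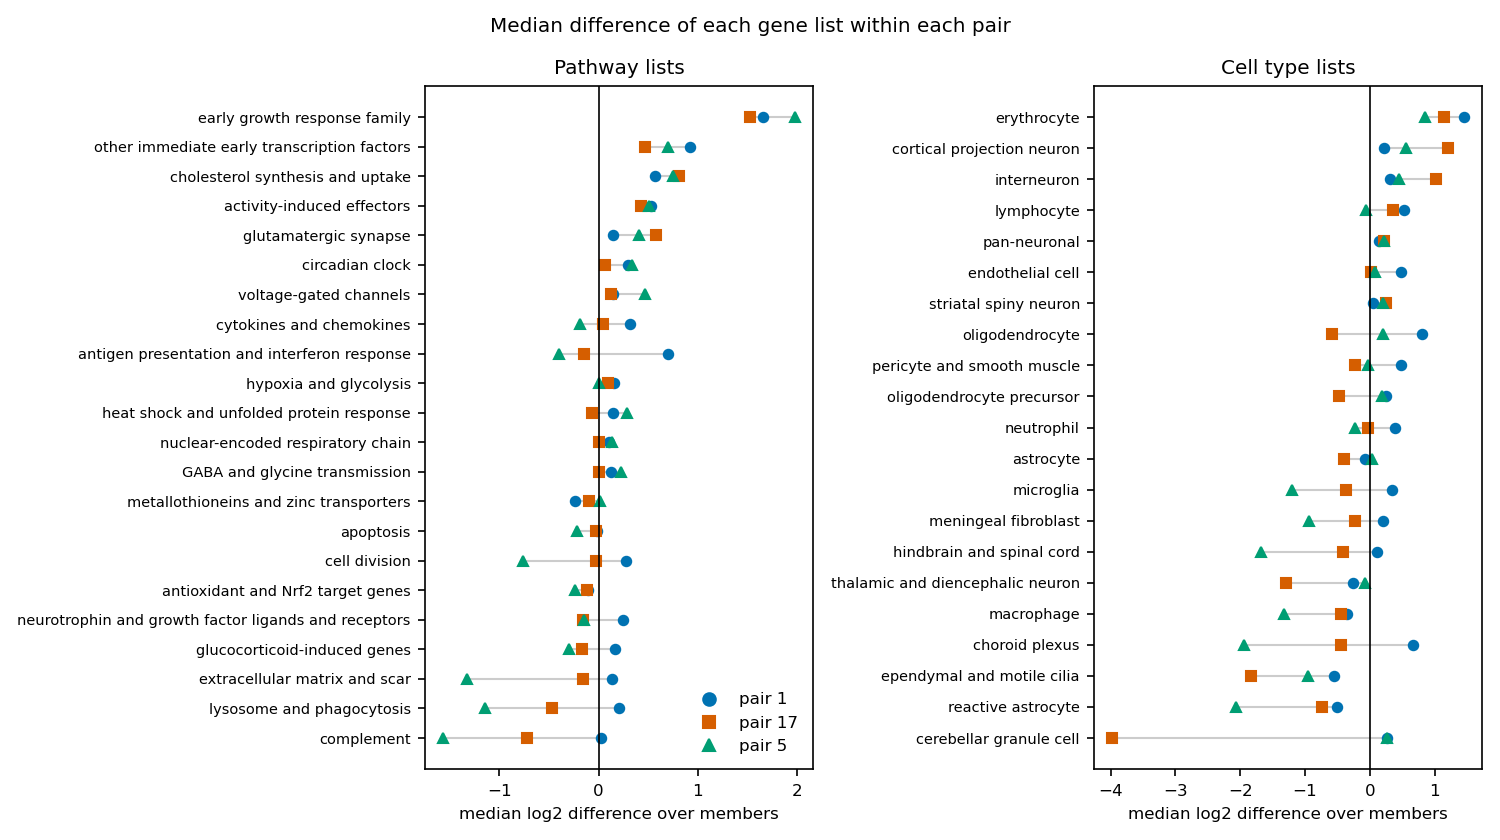
Median log2 difference over the measured members of 22 pathway lists (left) and 21 cell type lists (right) within pairs 1, 17 and 5. The early growth response, other immediate early, effector, cholesterol and erythrocyte rows lie to the right of 0 in all pairs and the reactive astrocyte and ependymal rows to the left; the complement, choroid plexus and cerebellar granule cell rows spread widely.

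Other lists are set beside all features, of which 22.7% were higher and 13.9% lower in all pairs. Oligodendrocyte markers had 0 of 12 in one direction in all pairs, with pair medians of 0.80, -0.59 and 0.21. Respiratory chain genes had 7 of 21 (33.3%) higher and 2 (9.52%) lower. Heat shock and unfolded protein response genes had 4 of 17 (23.5%) higher and 3 (17.6%) lower. Hypoxia and glycolysis genes had 8 of 21 (38.1%) higher and 2 (9.52%) lower. The respiratory chain median of 0.07 was -0.02 with quantile normalization, -0.06 with normexp correction and -0.02 in the authors' deposited table.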

How the data were processed

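Rat one-colour arrays (Agilent, Cy3) of 9 animals were used. Per the file headers, the deposited intensity values were background-subtracted within each array by Agilent Feature Extraction and not scaled between arrays. The authors' deposited value table gives log2 signals for part of the probes, with normalization not stated; its columns share a maximum, and it was used as an alternative. Here the log2 signal was scaled by each array's 75th percentile over non-control spots, spots with outlier flags were left out, and the probe with the highest mean was kept for each name (42877 non-control spots, 30367 probes, 18005 with a symbol). Features entered the test if all arrays of 1 or more groups lay well above background. A gene dim in 1 group could thus enter through another where it was high, as did the genes flagged as above background on only some arrays. All 9 arrays entered a limma 3.58.1 model (R 4.3.3) of 3 groups without a block, and calls needed a Benjamini-Hochberg adjusted p under 0.05 over all features. The labels name separate animals only by their number per group.

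Salidroside and vehicle arrays with the same title number deviated together from their group means (r = 0.356, 0.466 and 0.354 for numbers 1, 17 and 5). The other combinations gave -0.427 to 0.071. Deviations from a group mean cancel within the group, so a high r with 1 array lowers the r with the others. The contrast is thus partly set by the calculation. The numbers were taken to pair the arrays. Pair differences and 43 gene lists (22 pathway, 21 cell type) are described by counts and medians, without a test. The members and lists were chosen with earlier results of these data known. Named genes were every called feature, the 12 per direction with the largest smallest pair difference, of each list up to 4 members by p and those past 1 in all pairs, and 21 fixed genes. The remaining members of the 2 all-pair sets are given too. A few genes are not reported here, in the text or the plots, though the counts and medians include them. Genes given as the exceptions to a list's direction, Egr3's partner Nab2, Pcp2 and Cbln1, the antioxidant and C1q genes and those just outside the threshold of 1 were chosen after their values were seen. Normexp used the median spot signal with an offset of 50, because the mean spot signal is not a column of the files used here. Alternatives were other scalings, background correction, filters, probes, blocks, array weights, pair minimum, and leaving out each array or pair. Steps were tested on simulated data.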

Additional observations from a re-analysis of the deposited data

How the results depend on the processing

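Against 3 calls, 11 features were called with median scaling and with array weights, 8 with quantile normalization, 17 with the deposited value table (of 17561 features), 1 with the mean of probes, and 0 with normexp correction (988 features with an unadjusted p under 0.05), without a filter (1307), in the 6 MCAO arrays alone (1174), or there with the title number (2210) or slide (2121) as a block. The replicate block, by the number that ends the sample description, gave 0 (1656). Arrays that share this number did not deviate together (r = 0.071, -0.110 and -0.064). Leave-one-out counts ran from 0 to 8. Filters on the MCAO groups kept 3. The numbers at least 1 higher in all pairs were 25 in the deposited table, 176 at a minimum of 0.58 and 77 to 102 with 1 pair left out, against 39. The numbers lower were 5 with normexp correction, 117 at 0.58 and 66 to 160 with 1 pair left out (such counts cannot fall below those of all pairs), against 37; paired by replicate number they were 42 and 34. Filtering on all 6 arrays gave 34 and 25.

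With normexp, whose overall median was 0.55, differences turned positive for Capsl (0.77), Pde6b (0.77), Saxo2 (0.76), Bbox1 (0.71), Liat1 (0.69), Cd163 (0.36), Hmox1 (0.33), Pmvk (0.30), Nqo1 (0.26), Gfap (0.074) and Lrrc34 (0.070). With arrays left out in turn, Pmvk ran from -0.19 to 0.079 and Sik1 from -3.01 to 0.027, positive without vehicle 3. The cause was not tested. Slc6a5 was called under 7 of 22 alternatives, Crisp3 under 6 and ENSRNOT00000026303 under 8.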

Other observations

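Further lists are given as values, without a test. Of 15 measured circadian clock genes 6 (40.0%) were higher and 2 (13.3%) lower in all pairs, beside 22.7% and 13.9% of all features. Their median difference of 0.29 became 0.12 without vehicle 2, 0.16 without salidroside 3, 0.18 without salidroside 2 and 0.61 under normexp correction. The clock repressor Ciart was higher in every pair (0.88, 0.77 and 0.74 in pairs 1, 17 and 5), as was the clock output factor Dbp (0.54, 0.30 and 0.60), while its relative Tef was lower (-0.43, -0.29 and -0.32). None passed the adjusted threshold in limma, and the hour of tissue collection is not given in the labels.

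Of 19 measured extracellular matrix genes 6 (31.6%) were lower and 1 (5.26%) higher in all pairs, beside 13.9% and 22.7% of all features. Dcn, the small proteoglycan decorin, differed by -1.29, Sparc by -1.21, the protease inhibitor Timp1 by -1.41 and Fn1, fibronectin, by -0.59, while the list median was 0.14, -0.16 and -1.32 in pairs 1, 17 and 5. Of 22 lysosome and phagocytosis genes 5 (22.7%) were lower and 0 higher in all pairs, beside the same shares of all features. Among the 5 were the cathepsin Ctss (-0.83) and the membrane protein Lamp2 (-0.65), and the pair medians were 0.21, -0.47 and -1.14. Pair 5 gave the lowest median for both lists, and vehicle 3, its vehicle array, also had the highest summed complement level.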
